A study of Mus musculus with 2 samples.

Results

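The enzymes that remove superoxide and peroxides were followed across the cell types of the mouse dentate gyrus as 9 genes: Sod1, Sod2, Cat, Gpx1, Gpx4, Prdx1, Prdx5, Prdx6 and Txn1. They were taken by name from the 17592 gene columns of the deposited table, and all 9 were measured. The cells came from C57BL/6 mice, in a young library (age 3 months) and an old library (age 16 months), with no other treatment named. Per the labels' protocols, the dentate gyrus was dissected and dissociated with papain, living cells were sorted by their exclusion of propidium iodide, and 3' libraries were made on the 10x Genomics platform, which counts RNA molecules by unique molecular identifiers (UMIs). The medium that received the dissociated cells of both libraries held B27 and a supplement with selenium, the element built into the glutathione peroxidases Gpx1 and Gpx4. The number of mice behind each library is not given in the sources used here. With 1 library at each age there is no replicate, so values carry 95% intervals that cover counting error only, and no statistical test was made.

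Superoxide, which leaks from the respiratory chain and is made on purpose by phagocytes, is turned into hydrogen peroxide by the superoxide dismutases, Sod1 in the cytosol and Sod2 in the mitochondrial matrix. Hydrogen peroxide is then removed by catalase (Cat) in peroxisomes, by glutathione peroxidases and by peroxiredoxins. Gpx1 acts on soluble peroxides, while Gpx4 reduces lipid hydroperoxides inside membranes and so protects cells from ferroptosis. Prdx1 and Prdx5 take their electrons from thioredoxin (Txn1), and Prdx6 takes them from glutathione and also has phospholipase activity. In the brain, astrocytes are known for a large glutathione store, from which they also supply precursors to neurons.

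There were 2463 young cells, with 16217559 UMIs in all, against 1430 old cells with 7451506. Of the old library's barcodes, 1401 (98.0%) were also in the young library. The young cells are therefore described here, and the old ones are compared with them only at the end. The labels do not settle from which age the shared cells came, so young and old name the library only. Clusters were named after a class by markers, with members kept out of the genes that drove the clustering, and 7 classes with at least 40 young cells are described: 398 microglia-like, 304 astrocyte-like, 132 endothelial-like, 65 pericyte-like, 83 mature oligodendrocyte-like, 42 oligodendrocyte precursor-like and 57 neuroblast-like cells (markers of neuroblasts or immature granule neurons). Another 1313 young cells, with a median of 0.0813% of their UMIs from mitochondrial genes, were given no class and are left out. Each class had a summed level of its own markers at least 10 times that of the same markers in any other class, and the highest foreign share was that of oligodendrocyte precursor markers in pericyte-like cells (8.19% of the level in the precursors themselves). Depth differed between classes, from a median of 1908 UMIs per astrocyte-like cell to 9417 per mature oligodendrocyte-like cell. Levels are UMIs per 10,000 UMIs of the class sum. A 3' library counts 1 end per RNA molecule, so levels of different genes are set side by side without scaling to length.

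The 7 classes had 4 different leading genes. Prdx6 led in astrocyte-like cells with 45.0% of the UMIs of the 9 genes, Gpx1 in microglia-like cells with 30.4%, and Gpx4 in endothelial-like cells with 31.2%. Mature oligodendrocyte-like cells divided most of their UMIs between Gpx4 (40.5%) and Prdx1 (38.7%). Prdx1 led in pericyte-like (29.1%) and oligodendrocyte precursor-like cells (24.3%), and Gpx4 in neuroblast-like cells (28.4%). The summed level of the 9 genes was highest in astrocyte-like cells, at 38.3 UMIs per 10,000, and lowest in neuroblast-like cells, at 13.5, close to microglia-like cells at 13.8. This order does not carry over to UMIs per cell. On that scale mature oligodendrocyte-like cells held 9.20 of Gpx4 and 8.78 of Prdx1, against 5.08 of Prdx6 and 2.66 of Prdx1 in astrocyte-like cells. Astrocyte-like clusters, described further on, also differed, with sums per 10,000 of 55.4 (cluster 13), 33.3 (cluster 3) and 21.3 (cluster 9, 162 cells). The last lay below endothelial-like cells at 28.0.

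**Figure D1:**
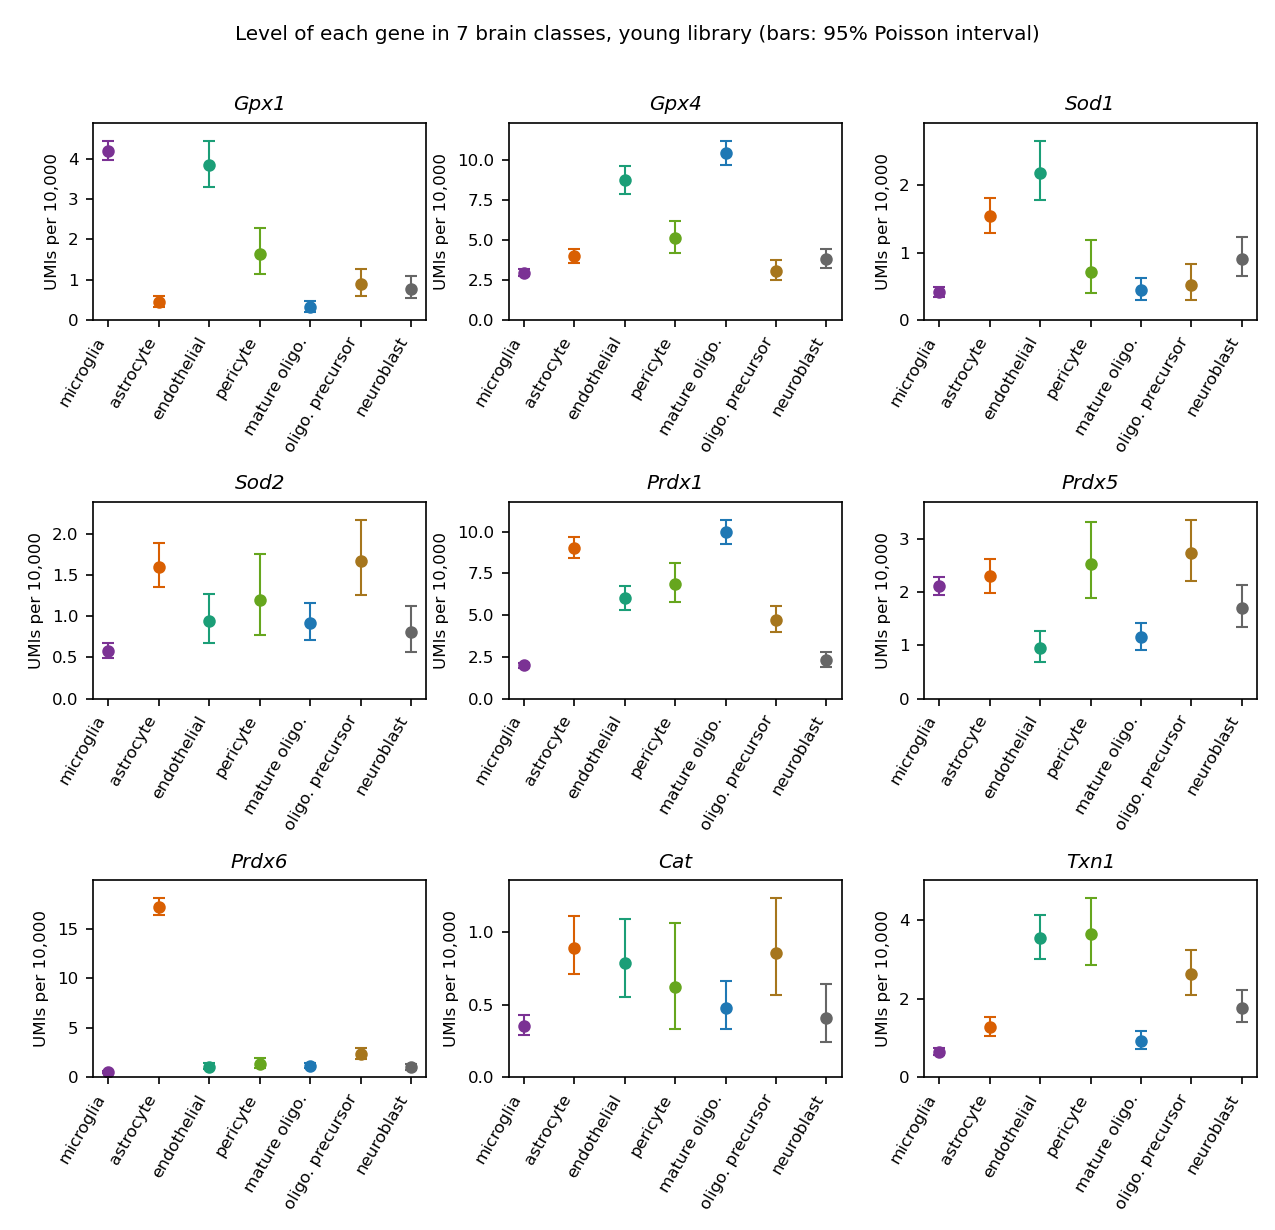
Level of each gene (y axis, UMIs per 10,000 UMIs of the class sum, linear, from 0) in 7 marker-named classes of the young library (x axis); points are class sums and bars are 95% Poisson intervals. Prdx6 stands at 17.2 in astrocyte-like cells and at 2.35 or below in the other classes, while Gpx1 is high in microglia-like (4.19) and endothelial-like cells (3.83).

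A class was called higher or lower for a gene when its level was at least 2-fold from the mean of the other 6 classes, with 0.1 UMIs per 10,000 added to both. All 9 members were among the 7817 genes with a mean level of at least 0.2, and they gave 63 pairs of gene and class, of which 5 (7.94%) were higher and 15 (23.8%) lower. These shares lie within the range of all tested genes, of which 7.36% to 9.76% were called higher and 14.6% to 32.1% lower in a class. The higher ones were Prdx6 in astrocyte-like cells, Gpx1 in microglia-like and endothelial-like cells, Sod1 in endothelial-like cells and Gpx4 in mature oligodendrocyte-like cells. With UMIs per cell in place of UMIs per 10,000, the counts were 8 higher and 11 lower. Of the 20 calls above, 11 held on that scale, the rest were lost, among them Gpx1 and Sod1 higher in endothelial-like cells, and 8 other pairs were called instead. That scaling moved the median log2 ratio of all tested genes by between -0.83 (astrocyte-like) and 0.55 (mature oligodendrocyte-like), and size factors from the median of ratios moved it by between -0.29 and 0.37. The log2 ratios behind the 20 calls kept their sign under both scalings, although not all stayed past 2-fold.

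Of the superoxide dismutases, Sod1, the copper and zinc enzyme of the cytosol, was highest in endothelial-like cells at 2.19 UMIs per 10,000 (1.78 to 2.66). It stood at 1.54 in astrocyte-like, 0.907 in neuroblast-like, 0.717 in pericyte-like, 0.518 in oligodendrocyte precursor-like, 0.438 in mature oligodendrocyte-like and 0.412 in microglia-like cells. The endothelial level was 1.42 times the astrocyte level (1.09 to 1.85) and 5.31 times the microglial one (4.05 to 6.96). From neuroblast-like cells down to microglia-like cells, no neighbours in this order differed beyond counting error. In endothelial-like cells, 8.55% of all tested genes were called higher and 22.9% lower. Against the mean of the other classes Sod1 was higher in endothelial-like cells by 1.42 on the log2 scale, and this fell short of 2-fold, at 0.78, when levels were given as UMIs per cell. Its lower calls in microglia-like and mature oligodendrocyte-like cells did not hold under either other scaling. Sod1 lies at chr16:90220754-90226329 on the plus strand (GRCm38), and 45.7% of the 31-base words in the last 500 bases of its transcripts also occur in other genes, mostly the processed pseudogene Gm8566, so its counts are uncertain.

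Sod2, the manganese enzyme of mitochondria, varied little between the classes. Its level was 1.68 UMIs per 10,000 in oligodendrocyte precursor-like, 1.61 in astrocyte-like, 1.196 in pericyte-like, 0.942 in endothelial-like, 0.917 in mature oligodendrocyte-like, 0.816 in neuroblast-like and 0.581 in microglia-like cells. No class was 2-fold from the others, and no 2 neighbours in the order differed beyond counting error, although the ends did, by 2.88 times (2.09 to 3.92). The gene lies at chr17:13006846-13040063 on the plus strand (GRCm38), and 12.9% of the 31-base words of its 3' end occur in some of 336 other genes, none of which holds more than 4.83% of them, so its counts are uncertain to that extent.

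Cat, whose enzyme splits hydrogen peroxide in peroxisomes, was the scarcest of the 9 genes in 4 of the 7 classes. It reached 0.893 UMIs per 10,000 in astrocyte-like, 0.853 in oligodendrocyte precursor-like, 0.789 in endothelial-like, 0.622 in pericyte-like, 0.479 in mature oligodendrocyte-like, 0.408 in neuroblast-like and 0.354 in microglia-like cells. Its highest level was 2.52 times its lowest (1.87 to 3.40), a narrower span than that of any other member and at percentile 17.3 of the spans of all tested genes. Astrocyte-like cells were above the mean of the other classes by 0.54 on the log2 scale, and below it, at -0.37, when levels were given as UMIs per cell. Cat lies at chr2:103453849-103485160 on the minus strand (GRCm38).

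The glutathione peroxidases Gpx1 and Gpx4 carry selenocysteine in their active site, which is read from a TGA codon that elsewhere ends translation. Both codons are shown in their frame because they set these 2 enzymes apart from the other 7. The sequences are from the GENCODE transcripts on GRCm38, 5′ to 3′ on the sense strand, with the selenocysteine codon in capitals. The Gpx1 codon is at chr9:108339451-108339453, codon 47, in exon 1 of 2. The Gpx4 codon is at chr10:80054737-80054739, codon 73 of transcript ENSMUST00000105372.7, in exon 3 of 7.
Gpx1: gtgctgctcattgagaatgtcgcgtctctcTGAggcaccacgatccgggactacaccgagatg
Gpx4: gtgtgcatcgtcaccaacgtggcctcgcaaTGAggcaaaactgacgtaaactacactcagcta

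Gpx1, the cytosolic enzyme with the selenocysteine codon shown above, was a gene of microglia-like and endothelial-like cells. Its level was 4.19 UMIs per 10,000 (3.97 to 4.43) in microglia-like and 3.83 (3.29 to 4.45) in endothelial-like cells, which did not differ beyond counting error, with a ratio of 1.09 (0.934 to 1.29). Pericyte-like cells followed at 1.63, oligodendrocyte precursor-like at 0.883, neuroblast-like at 0.771, astrocyte-like at 0.435 and mature oligodendrocyte-like cells at 0.315 (0.1995 to 0.472). The span from microglia-like to mature oligodendrocyte-like cells was 13.3 times (8.84 to 21.1). In microglia-like cells, 8.46% of all tested genes were called higher and 32.1% lower; Gpx1 was higher by 1.61 on the log2 scale. It was lower by 1.93 in astrocyte-like cells, where 20.5% of all tested genes were called lower, and lower by 2.31 in mature oligodendrocyte-like cells, where 28.0% were. These 3 calls held in all 19 other settings, some of which could not remove a call, as given further on. The call in endothelial-like cells (1.42 on the log2 scale) fell short of 2-fold as UMIs per cell, at 0.51. The gene lies at chr9:108338903-108340343 on the plus strand (GRCm38), and no 31-base word of its 3' end occurs in another gene.

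The pattern of Gpx4 across the classes was different. Its level was 10.5 UMIs per 10,000 (9.73 to 11.2) in mature oligodendrocyte-like cells, the class where Gpx1 was lowest, and 8.74 (7.90 to 9.64) in endothelial-like cells. Pericyte-like cells had 5.12, astrocyte-like 3.99, neuroblast-like 3.83, oligodendrocyte precursor-like 3.08 and microglia-like 2.96. Mature oligodendrocyte-like cells exceeded endothelial-like cells by 1.196 times (1.06 to 1.35), and among the 4 lowest classes no neighbours differed beyond counting error. In mature oligodendrocyte-like cells, where 7.36% of all tested genes were called higher, Gpx4 was higher by 1.16 on the log2 scale, and by 2.003 as UMIs per cell. Gpx4 lies at chr10:80047166-80056439 on the plus strand (GRCm38). Of the 31-base words of its 3' end, 94.0% also occur in Gpx4-ps2, which has no column in the table, so its counts are uncertain.

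Many genes of this defence are known targets of the transcription factor NRF2, which binds antioxidant response elements. The core of this element, TGACNNNGC, was searched on both strands in the RefSeq promoter windows, from 250 bases before to 50 after the start, on GRCm38.p6. It occurred in 12.4% of all 32851 windows and in 2 of the 11 windows of the members, which belong to 8 genes, all but Prdx6. Both matches are shown because they are those found in the members' windows. Sod1 was highest in endothelial-like and Prdx1 in mature oligodendrocyte-like cells, and both were lowest in microglia-like cells. They lie on the minus strand, so the capitals are the reverse complement of the motif, at -56 from the start of Sod1 (window chr16:90220666-90220754) and -133 from that of Prdx1 (window chr4:116685426-116685514). A match is a description of these letters and not a measured binding site.
Sod1: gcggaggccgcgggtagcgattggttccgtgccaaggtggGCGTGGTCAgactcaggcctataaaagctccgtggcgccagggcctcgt
Prdx1: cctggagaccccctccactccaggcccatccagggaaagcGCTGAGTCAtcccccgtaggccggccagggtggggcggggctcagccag

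The peroxiredoxins held both the most and one of the least class-bound members. Prdx6, the glutathione-dependent enzyme, stood at 17.2 UMIs per 10,000 (16.4 to 18.1) in astrocyte-like cells. The next class was oligodendrocyte precursor-like at 2.35, then pericyte-like at 1.34, mature oligodendrocyte-like at 1.15, endothelial-like at 1.07, neuroblast-like at 1.02 and microglia-like at 0.519. Astrocyte-like cells thus had 7.34 times the level of the precursors (5.84 to 9.35) and 33.1 times that of microglia-like cells (28.2 to 39.3), a span at percentile 90.9 of all tested genes. Against the mean of the other 6 classes the log2 ratio was 3.69, in a class where 9.76% of all tested genes were called higher. Prdx6 was also called lower in 5 of the other 6 classes, for which the mean of the others includes astrocyte-like cells. With the median of the other classes in place of the mean, its lower call held in microglia-like cells and in none of the other 4. In that setting Prdx6 was also called higher in oligodendrocyte precursor-like cells. The summed level of 15 astrocyte markers in oligodendrocyte precursor-like cells was 6.68% of that in astrocyte-like cells, against 13.6% for Prdx6. In microglia-like cells these shares were 1.65% for the markers and 3.02% for Prdx6, and the part of RNA from other cells in these low levels was not tested. Prdx6 lies at chr1:161240112-161251219 on the minus strand (GRCm38).

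Prdx1, the cytosolic peroxiredoxin that works with thioredoxin, was highest in mature oligodendrocyte-like and astrocyte-like cells. Its level was 9.98 UMIs per 10,000 (9.26 to 10.7) in mature oligodendrocyte-like and 9.02 (8.40 to 9.66) in astrocyte-like cells, with a ratio of 1.11 that did not exceed counting error (1.00 to 1.22). Pericyte-like cells had 6.89, endothelial-like 6.00, oligodendrocyte precursor-like 4.72, neuroblast-like 2.29 and microglia-like 1.99. Of the 808 astrocyte UMIs, 525 came from 1 of its clusters, described further on, with a level of 15.9, against 6.67 (5.81 to 7.61) and 2.70 in the other 2, so the place of astrocyte-like cells above pericyte-like cells rests on that cluster. Neuroblast-like and microglia-like cells did not differ beyond counting error and lay below all other classes. Prdx1 was lower by 1.65 on the log2 scale in microglia-like cells, in all 19 other settings too, and lower by 1.45 in neuroblast-like cells, where 23.8% of all tested genes were called lower; the latter was 0.96 lower as UMIs per cell. The gene lies at chr4:116685544-116700822 on the plus strand (GRCm38), and 32.8% of the 31-base words of its 3' end occur in other genes, mostly the pseudogene Gm21399, so its counts are uncertain.

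Prdx5, found in mitochondria, peroxisomes and the cytosol, was more even. It stood at 2.74 UMIs per 10,000 in oligodendrocyte precursor-like, 2.53 in pericyte-like, 2.30 in astrocyte-like, 2.11 in microglia-like, 1.70 in neuroblast-like, 1.15 in mature oligodendrocyte-like and 0.942 in endothelial-like cells. Among the first 5 classes no neighbours differed beyond counting error. Endothelial-like cells were lower by 1.07 on the log2 scale, and this fell short of 2-fold when each cell had equal weight. It was the only member besides Gpx1 with a positive log2 ratio in microglia-like cells (0.15). Prdx5 lies at chr19:6906697-6910106 on the minus strand (GRCm38).

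Txn1, the cytosolic thioredoxin that recharges peroxiredoxins, was highest per 10,000 UMIs in the 2 vascular classes. Its level was 3.63 UMIs per 10,000 (2.86 to 4.55) in pericyte-like and 3.53 (3.00 to 4.12) in endothelial-like cells, which did not differ beyond counting error. The order went on through oligodendrocyte precursor-like (2.62), neuroblast-like (1.77), astrocyte-like (1.27) and mature oligodendrocyte-like (0.9305) to microglia-like cells (0.653), and each of these steps exceeded counting error. Mature oligodendrocyte-like cells, which had the highest Prdx1 level, were thus among the lowest for Txn1. No class was called higher. As UMIs per cell the order changed, with oligodendrocyte precursor-like cells first at 2.05 and called higher. Neuroblast-like (1.37), endothelial-like (1.22) and pericyte-like cells (1.17) followed. With size factors endothelial-like cells were called higher. The lower call in microglia-like cells (1.67 on the log2 scale) held under both other scalings, while that in mature oligodendrocyte-like cells (1.19) held under neither. Txn1 lies at chr4:57943373-57956411 on the minus strand (GRCm38).

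Read by class, microglia-like cells had 1 of 9 members higher and 4 lower (Sod1, Prdx1, Prdx6 and Txn1), with a median log2 ratio of -0.96 against -0.56 for all tested genes, of which 8.46% were called higher and 32.1% lower. Astrocyte-like cells had 1 higher and 1 lower and a median of 0.54 against -0.21, with a background of 9.76% higher and 20.5% lower. Endothelial-like cells had 2 higher and 2 lower and a median of 0.34 against -0.23, with a background of 8.55% and 22.9%. Mature oligodendrocyte-like cells had 1 higher and 4 lower (Gpx1, Sod1, Prdx6 and Txn1) and a median of -0.79 against -0.43, with a background of 7.36% and 28.0%. In pericyte-like cells, where 7.98% of all tested genes were called higher and 22.7% lower, none of the 9 was higher and Prdx6 was lower. In neuroblast-like cells, with a background of 9.33% higher and 23.8% lower, none was higher and 3 were lower (Gpx1, Prdx1 and Prdx6). No member was called in oligodendrocyte precursor-like cells, with a background of 8.98% higher and 14.6% lower.

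**Figure D2:**
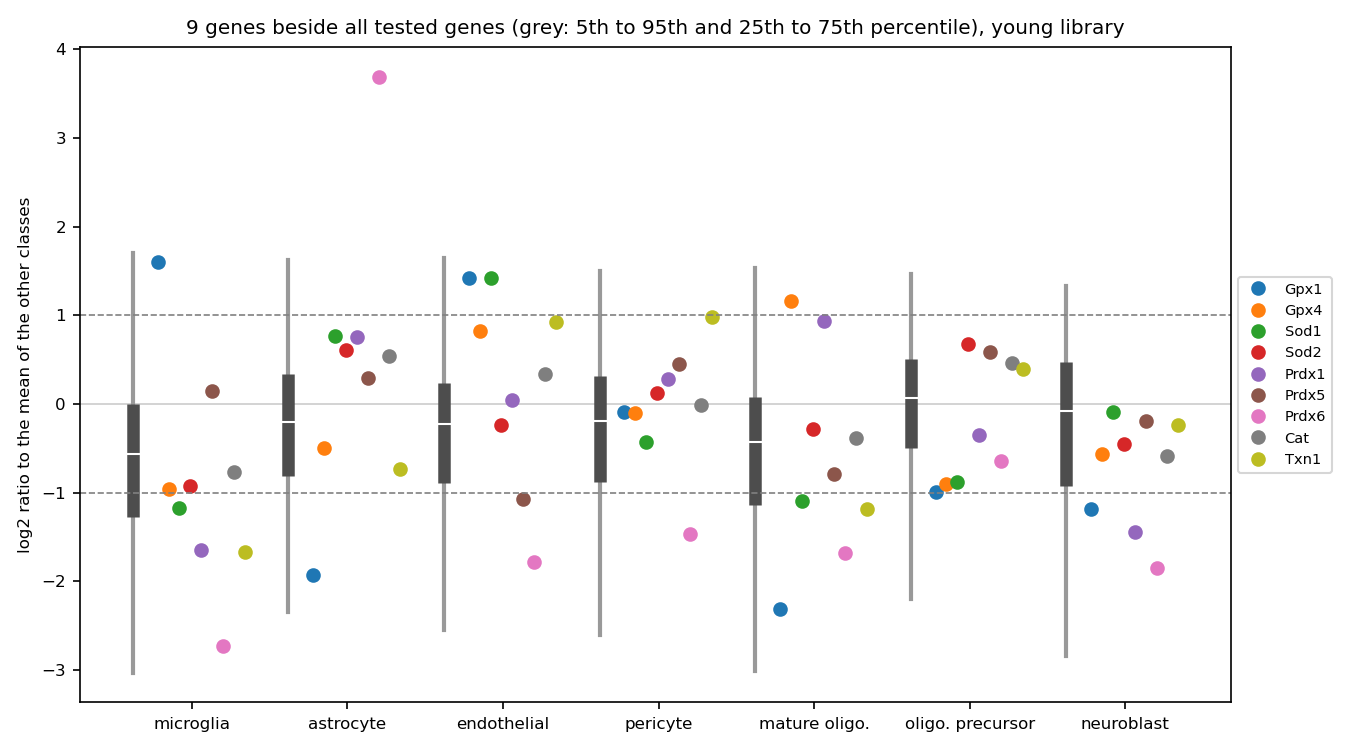
Log2 ratio of each class to the mean of the other 6 (y axis) for the 9 genes (coloured points) and for all 7817 tested genes (white tick, median; dark bar, 25th to 75th percentile; light line, 5th to 95th percentile), by class (x axis), young library; dashed lines mark 2-fold. Prdx6 in astrocyte-like cells (3.69) lies above the 95th percentile of that class (1.63), and Gpx1 in microglia-like cells (1.61) just below it (1.70).

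For Prdx6 and Gpx1, the same classes stood out cell by cell once depth was made equal. Each cell was thinned to 1000 UMIs, which left out 41 of 304 astrocyte-like and 1 to 6 cells of each other class. A Prdx6 UMI was then found in 70.7% of astrocyte-like cells (64.8 to 76.2, exact binomial), against 6.36% of microglia-like cells, and 36.1% of astrocyte-like cells had 2 or more. Without thinning these shares were 83.9% and 30.9%, at median depths of 1908 and 7804 UMIs. A Gpx1 UMI was found in 31.3% of thinned microglia-like cells (26.7 to 36.1) and 24.6% of endothelial-like cells, against 1.23% of mature oligodendrocyte-like cells. The unthinned shares for Gpx1 were 82.7%, 55.3% and 20.5%, at median depths of 7804, 3208 and 9417 UMIs. For Prdx1 the order changed. Its thinned share was 54.3% in mature oligodendrocyte-like, 49.2% in pericyte-like, 44.4% in endothelial-like and 40.7% in astrocyte-like cells. No class is known to lack these genes, so there was no measure of free RNA. The lowest thinned shares were 4.94% for Prdx6 and 1.23% for Gpx1, both in mature oligodendrocyte-like cells.

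**Figure D3:**
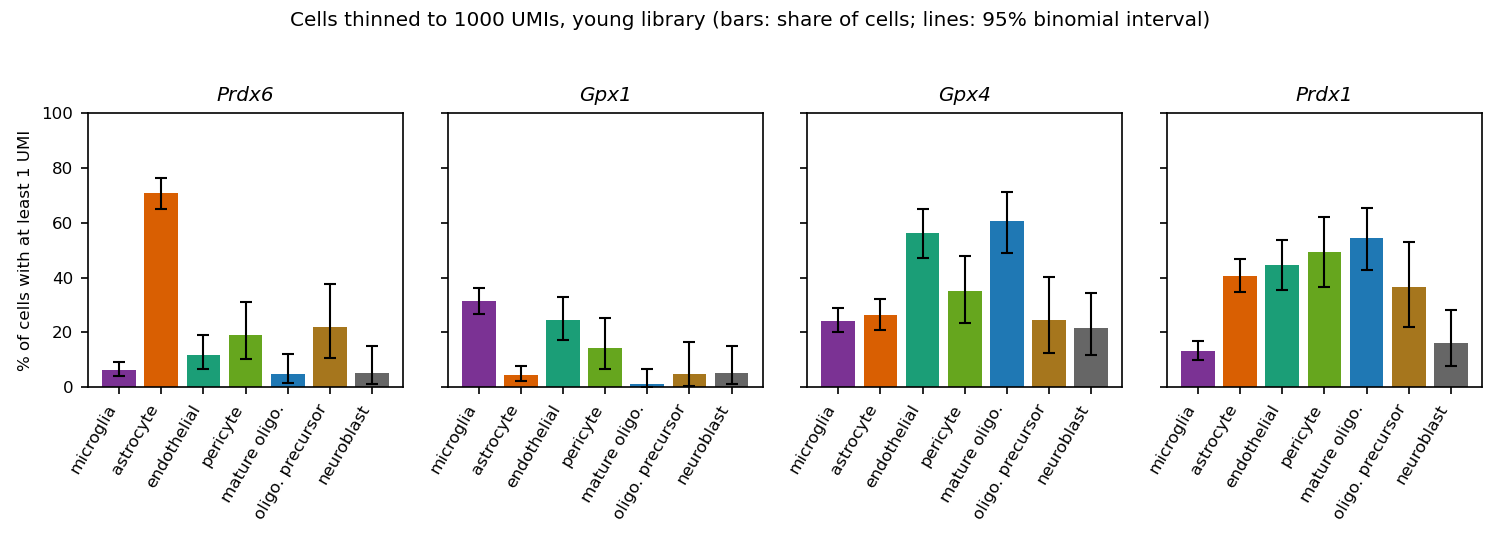
Share of cells with at least 1 UMI (y axis, percent, from 0) after thinning each cell to 1000 UMIs, for Prdx6, Gpx1, Gpx4 and Prdx1 in 7 classes (x axis) of the young library; bars are shares and lines are exact 95% binomial intervals. Prdx6 was seen in 70.7% of astrocyte-like cells, and Gpx4 in 60.5% of mature oligodendrocyte-like and 56.3% of endothelial-like cells.

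Within the astrocyte-like class, 3 clusters differed in most of these genes. Cluster 13 (75 young cells, median depth 3965 UMIs) had Hopx, Mt1 and Mt3 among its leading genes, cluster 3 (67 cells, 4530 UMIs) had Slc1a2 and Htra1, and cluster 9 (162 cells) was shallow at 1210.5 UMIs and led by Gm3764. Prdx6 stood at 23.3 UMIs per 10,000 in cluster 13, 15.6 in cluster 3 and 11.03 in cluster 9. Prdx1 stood at 15.9, 6.67 and 2.70, a wider range. Clusters 13 and 3, similar in depth, differed 2.38 times in Prdx1 (2.03 to 2.80), 2.16 times in Sod2 (1.47 to 3.22), 1.93 times in Txn1 (1.26 to 2.99), 1.67 times in Gpx4 (1.32 to 2.13) and 1.497 times in Prdx6 (1.34 to 1.68). Sod1 went the other way, at 0.577 times (0.361 to 0.909). Between these 2 clusters, 5.24% of all tested genes were at least 2-fold higher and 11.2% lower in cluster 13. These clusters were made from other genes of the same cells, so their differences are given as values only. The median mitochondrial share was 9.49% in cluster 13, 11.4% in cluster 3 and 3.76% in cluster 9, and its part in these differences was not tested. Without cluster 9, an alternative chosen after seeing the data, Prdx6 in the class was 19.4 UMIs per 10,000 in place of 17.2.

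Microglia-like cells fell mainly into cluster 4 (325 young cells) and cluster 5 (49 cells), the latter led by the chemokine genes Ccl4, Ccl3 and Ccl7 and the stress-response gene Atf3. Gpx1 was 5.97 UMIs per 10,000 in cluster 5 and 4.04 in cluster 4, a ratio of 1.48 (1.27 to 1.71). In smaller microglia-like clusters Gpx1 was 1.53 (0.788 to 2.67, from 12 UMIs in 19 cells) and 3.05 (1.12 to 6.65, from 6 UMIs in 5 cells). Gpx4 was lower in cluster 5, at 2.27 against 3.03 (ratio 0.748, 0.587 to 0.942). For the other 7 genes the interval of the ratio included 1. Of all tested genes, 1.47% were at least 2-fold higher in cluster 5 and 0.497% lower, and no member was.

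**Figure D4:**
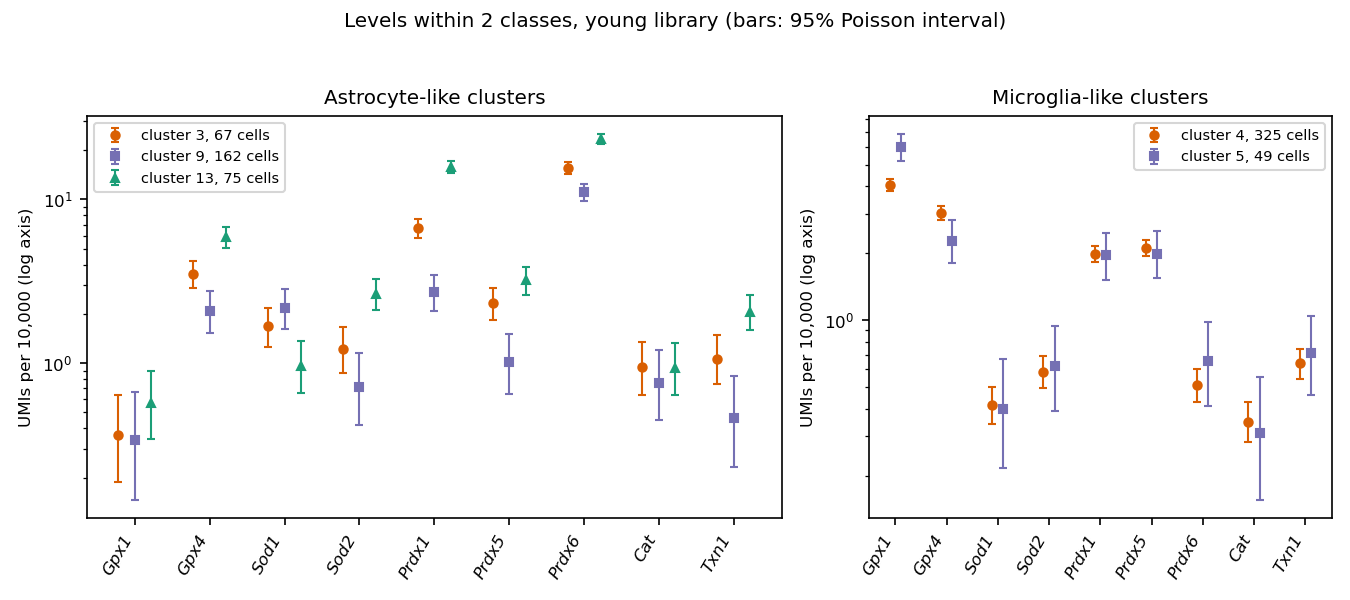
Level of each gene (y axis, UMIs per 10,000, log axis) in 3 astrocyte-like clusters (left) and 2 microglia-like clusters (right) of the young library; points are cluster sums and bars 95% Poisson intervals. Prdx1 spans 2.70 to 15.9 between astrocyte-like clusters, while in microglia-like cells Gpx1 is higher (5.97 against 4.04) in cluster 5.

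Other genes of the same chemistry were read from lists chosen by function, with each ratio to the mean of the other 6 classes taken as above. Of 9 other peroxidases and dismutases, 7 passed the minimum level. Prdx2, the peroxiredoxin best known from red cells and neurons, was highest in neuroblast-like cells at 13.9 UMIs per 10,000, 4.05 times the mean of the other classes. The sum of the 9 genes above was lowest in this class on the same scale. Pericyte-like cells were highest for Sod3, the extracellular dismutase, at 6.93 (49.7 times), and for Gpx8, of the endoplasmic reticulum, at 5.55 (22.6 times). These 2 were the higher calls of this list in pericyte-like cells, and none of its genes was called lower there, beside 7.98% and 22.7% of all tested genes.

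For the systems that supply electrons, the classes differed in kind. Slc7a11, the cystine importer that feeds glutathione synthesis, was 4.20 UMIs per 10,000 in astrocyte-like cells, 31.6 times the mean of the others. It was the only call in that class among the 4 tested genes of glutathione synthesis, beside 9.76% higher and 20.5% lower of all tested genes. The median log2 ratio of these 4 genes was 0.38, against -0.21 for all tested genes. Gclc, the catalytic subunit of the limiting enzyme of glutathione synthesis, was highest in astrocyte-like cells as well, at 0.569, but only 1.53 times the others, and its partner subunit Gclm in mature oligodendrocyte-like cells, at 1.61 (1.83 times). Taldo1, of the pentose phosphate pathway that makes NADPH, was 11.8 in mature oligodendrocyte-like cells (5.32 times). In that class it was the only higher call among the 4 tested genes of NADPH supply, and 1 was lower. Of all tested genes, 7.36% were called higher and 28.0% lower there. Idh2, which makes NADPH in mitochondria, was 2.05 in astrocyte-like cells (2.72 times) and 0.356 in mature oligodendrocyte-like cells. Idh1, its cytosolic counterpart, was highest in neuroblast-like cells at 1.27 (2.48 times). Of 8 tested thioredoxin and glutaredoxin partners, Txnip, which binds and inhibits thioredoxin, was 7.93 in microglia-like cells (7.37 times), the class lowest in Txn1, where 3 others of the list were called lower, beside 32.1% of all tested genes. Nxn was highest in endothelial-like cells (1.29, 5.73 times) and Txnrd1, the cytosolic thioredoxin reductase, in neuroblast-like cells (0.975, 2.60 times).

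Among 10 tested genes of selenium supply and other selenoproteins, Selenop, the secreted carrier of selenium, was 14.6 UMIs per 10,000 in endothelial-like and 13.1 in microglia-like cells, which were also the 2 classes highest in Gpx1. Lrp8, its receptor, was 2.02 in endothelial-like cells (4.36 times the mean of the others), and Msrb1, which repairs oxidised methionine, was 1.41 in mature oligodendrocyte-like cells (3.39 times). In endothelial-like cells 2 of these 10 genes were higher and none lower, beside 8.55% and 22.9% of all tested genes. Of the phagocyte oxidase, the enzyme that makes superoxide, Cyba was higher in microglia-like cells at 7.72 (7.43 times), and so was Ncf1 at 2.75 (20.7 times). Cybb, its catalytic subunit, was under the minimum level. Of 8 tested genes of the NRF2 pathway, 1 was lower and 3 were higher in microglia-like cells (median log2 ratio 0.58, against -0.56 for all tested genes, of which 8.46% were called higher and 32.1% lower): Nfe2l2, which encodes NRF2, at 1.54 (2.54 times), Mafg, its binding partner, at 2.55 (2.54 times), and Hmox1, heme oxygenase, at 0.867 (4.59 times). The lower one was Sesn3, at 0.101. Of the members, Gpx1 was called higher in this class and Sod1, Prdx1, Prdx6 and Txn1 lower. The activity of NRF2 was not tested. Of 18 tested peroxisome genes, 2 were higher and none lower in astrocyte-like cells, beside 9.76% and 20.5% of all tested genes, namely the fatty acid transporter Abcd2 (1.19, 4.35 times) and Phyh, of phytanic acid breakdown (1.39, 2.73 times).

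Genes with the most similar pattern of levels were sought for each member outside all lists, as the smallest root mean square difference of centred log2 levels over the 7 classes. For Prdx6 they were Slc27a1 (0.34, 5.80 UMIs per 10,000 in astrocyte-like cells), Hapln1 (0.36) and Plxnb1 (0.36). The nearest to Gpx1 was Fam212a (0.30), to Gpx4 Map7d1 (0.27), to Prdx1 Sik3 (0.31), to Sod1 Sfxn3 (0.22) and to Txn1 Alad (0.25). The flatter genes had closer neighbours, with Hdgfl2 at 0.08 from Cat, Pgam1 at 0.10 from Sod2 and Zfp263 at 0.20 from Prdx5. This follows from the measure, which is small between any genes of small span. All 7 points come from 1 library and share its depth per class.

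The old library gave close to the same levels in cells with the same barcodes. Of the shared barcodes, 1115 were outside the low-mitochondrial clusters in both libraries, always in the same class, and the old rows held 1.12 times the UMIs of the young rows. Over the 63 pairs of gene and class, the ratio of old to young levels lay between 0.899 (Sod1 in astrocyte-like cells, 1.34 against 1.51 UMIs per 10,000) and 1.14 (Gpx4 in oligodendrocyte precursor-like cells, 3.66 against 3.21). None reached 1.5-fold, or 1.2-fold, and 31 of 63 were higher in the old rows. Prdx6 in astrocyte-like cells was 16.5 in the old and 17.0 in the young rows, and Gpx1 in microglia-like cells was 4.13 and 4.17. Over all tested genes of these classes, 0.770% of gene and class pairs were 1.5-fold apart either way. Since these are rows of the same barcodes, they describe 2 tables of the same cells, and age was not compared.

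**Figure D5:**
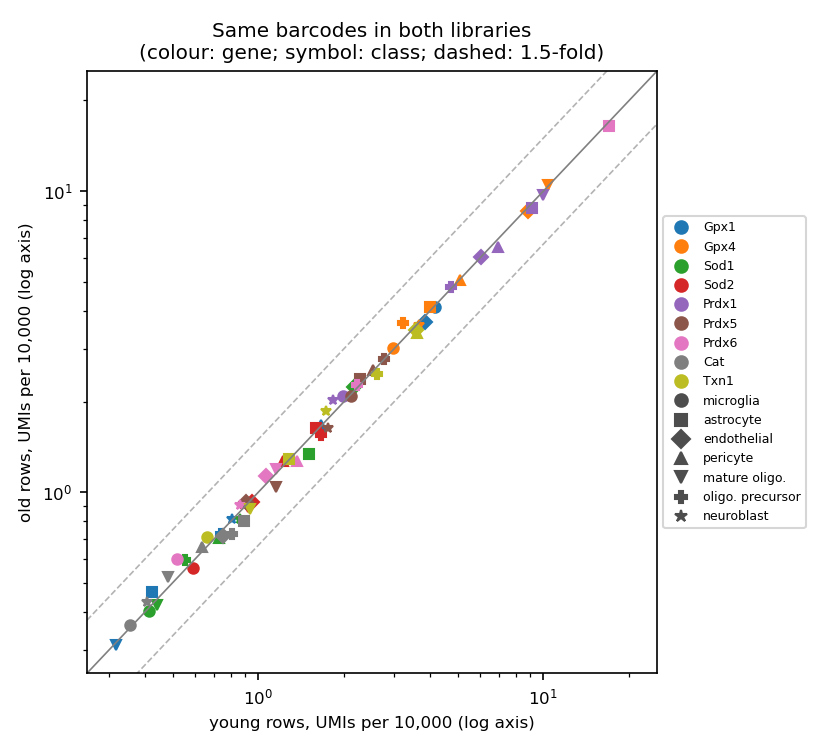
Level of each gene (colour) in each class (symbol) in the old rows (y axis) against the young rows (x axis) of the same barcodes, UMIs per 10,000 on log axes; the solid line marks equality and dashed lines 1.5-fold. All 63 points lie between ratios of 0.899 and 1.14.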

How the data were processed

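The deposited values are natural logs: with the log undone and 1 taken off, every cell summed to 10000, so they were read as UMIs per 10,000, a unit no label states. Cell Ranger 5.0.0 and mm10 are named per the submitters' processing notes. Whole UMIs were recovered for 100% of 7332863 values within 0.01 and summed by class. Both libraries were clustered together with scanpy 1.11.5 (2000 variable genes without the redox lists, 30 components, 15 neighbours, Leiden resolution 1, igraph 0.11.9), and mixed or unnamed clusters once more (resolution 0.5). A class needed 3 markers, each with a UMI in 25% of cells and at 4 times the median of other clusters. Clusters under 1% mitochondrial UMIs stayed unnamed; this limit and the factor of 4 were set after seeing the data. Doublets called by Scrublet (37 young, 23 old) were kept. Intervals are exact (scipy 1.17.1). The computation of the calls was checked on simulated counts.

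The members and lists were chosen with earlier results of these data known. Named are all members, up to 3 genes of each list with the largest ratio and at least 20 UMIs, and the genes nearest in pattern. One gene of the lists is not reported here. Genes naming clusters, and Cybb, were chosen after their values were seen. Alternatives covered scaling, depth, doublets, library, clustering, fold, pseudocount, filter and RNA of other classes.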

Additional observations from a re-analysis of the deposited data

Results flagged for a closer look

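The 1313 young cells with a low mitochondrial share are in no comparison above. In them, 2 of the genes were at a level above all 7 classes with at least 40 young cells. Sod1 stood at 4.46 UMIs per 10,000 (4.33 to 4.60), 2.04 times its level in endothelial-like cells (1.67 to 2.51), and Prdx5 at 7.31 (7.15 to 7.49), 2.67 times its level in oligodendrocyte precursor-like cells (2.17 to 3.32). Cat had 3 UMIs among 9755901 in these cells, and Txn1 (0.0646) and Sod2 (0.250) were also below all of those 7 classes. The 286 such cells of the old library had Sod1 at 2.62, Prdx5 at 6.04 and Cat at 0. What these cells are was not tested.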

How the results depend on the processing

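The counts of 5 higher and 15 lower pairs of gene and class depended most on the fold asked for. At 1.5-fold they were 14 and 25, and at 3-fold 2 and 8. With UMIs per cell 8 pairs were higher and 11 lower, and with cells thinned to 1000 UMIs 9 were higher and 22 lower. With the median of the other classes 10 were higher and 8 lower. With a pseudocount of 1, 9 were lower. The level of Prdx6 in astrocyte-like cells was 15.0 UMIs per 10,000 with equal weight of cells, 14.9 after thinning, 19.4 without cluster 9 and 18.9 with mitochondrial transcripts left out of the total. Thinning gave 3.92 for Gpx1 in microglia-like cells, 11.48 for Gpx4 and 9.14 for Prdx1 in mature oligodendrocyte-like cells, and 2.20 for Sod2 and 3.41 for Prdx5 in oligodendrocyte precursor-like cells. Without mitochondrial transcripts Gpx1 was 4.44, Gpx4 11.7 and Prdx1 11.1. Astrocyte-like cells fell below the other classes for Cat, at -0.37 on the log2 scale, with UMIs per cell. The calls of Gpx1 (higher in microglia-like, lower in astrocyte-like and mature oligodendrocyte-like cells), Prdx6 (higher in astrocyte-like, lower in microglia-like cells) and Prdx1 (lower in microglia-like cells) held in all 19 settings. Not all of these settings could remove a call: the limit of 1.5-fold and the lack of a filter could not. The old rows and the shared barcodes are mostly the same cells as the main setting. The settings without cluster 9, without the smaller microglia-like clusters and without mitochondrial transcripts were chosen after seeing the data. No paired analysis was possible because each age has 1 library. The cause of these shifts was not tested. With 42 to 65 cells in the 3 smallest classes, levels under 1 UMI per 10,000 rest on few UMIs (13 for Cat in pericyte-like cells), and smaller differences were not detectable at this depth.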

Other observations

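Smaller classes of the young library were left out of the comparisons. In 15 smooth muscle-like cells Prdx1 was 6.28 UMIs per 10,000 (4.803 to 8.07), Gpx4 5.15 and Txn1 4.32, and Cat had 0 UMIs of 97153, which allows a level of up to 0.309 (3 counts). In 4 choroid plexus-like cells, of the epithelium that makes cerebrospinal fluid, Gpx4 was 24.0 (18.5 to 30.5), from 66 UMIs, and Prdx5 was 9.08 (5.88 to 13.4), while Sod1 and Txn1 had 0 UMIs of 27519, which allows up to 1.09. In 6 perivascular macrophage-like cells Gpx1 had 1 UMI of 15442 (0.648, 0.0164 to 3.61), against 4.19 in microglia-like cells, and Prdx1 was 9.07 (4.96 to 15.2), against 1.99. The difference in Prdx1 exceeded the intervals of both values, while the interval of Gpx1 lay just below the microglial one. In 6 B cell-like cells Gpx1 was 8.08 (5.23 to 11.9), from 25 UMIs, above the level in microglia-like cells. In 5 T or NK cell-like cells Gpx1 was 0.832 (0.101 to 3.01), from 2 UMIs.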
